A study of Mus musculus with 9 samples.

Results

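The genes described here encode lysosomal hydrolases, their cofactors and membrane proteins, and the subunits of the vacuolar proton pump (V-ATPase). Members were the rows of the gene count table whose symbol begins with Atp6v (23 rows) together with 33 named lysosomal genes, 56 of 24391 rows. All 33 named genes and 14 of the Atp6v rows passed the filter on low counts, so 47 members were among the 12573 genes tested. RNA had been sequenced from bone marrow of C57BL/6 mice, aged 6 to 8 weeks per the labels, that carried AML1-ETO9a leukaemia, a model driven by a truncated variant of the AML1-ETO fusion oncoprotein. The cells were sorted by surface CD43, a leukocyte sialoglycoprotein, and c-Kit, the stem cell factor receptor, into CD43++ckit+, CD43+ckit- and CD43-ckit- populations with 3 libraries each. Every population came from leukaemic marrow, and no healthy marrow was among the groups. The labels do not say how many mice were used or whether each library had its own mouse. The p-values therefore measure spread among these libraries only, which may be technical.

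Lysosomes degrade proteins, glycans, lipids and nucleic acids in an acidic lumen. The V-ATPase acidifies it: the V1 sector hydrolyses ATP in the cytosol and turns a rotor that drives protons through the membrane-bound V0 sector. Several subunits exist as isoforms from separate genes, and the a subunit isoforms are known to direct the pump to different membranes. Most hydrolases reach the lysosome with a mannose 6-phosphate tag, and many lysosomal genes share a promoter element recognised by TFEB and its relatives.

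Total counts were 28530150 to 31781746 in CD43++ckit+ cells, 27378734 to 28214639 in CD43+ckit- cells and 17966197 to 21609537 in CD43-ckit- libraries. Levels are given in CPM, counts relative to TMM-scaled library size, in the order of library 1, 2 and 3. Kit averaged 164.2 ± 15.9 CPM in CD43++ckit+ cells, 15.8 ± 7.01 CPM in CD43+ckit- cells and 34.1 ± 13.2 CPM in CD43-ckit- cells (SD, n = 3 each). Library 3 of CD43++ckit+, library 1 of CD43+ckit- and library 1 of CD43-ckit- correlated least with the others of their populations. The summed level of 11 neutrophil markers was 358.1, 96.56 and 6117 CPM in CD43++ckit+ cells, 494.8, 3770 and 3012 CPM in CD43+ckit- cells, and 3888, 16780 and 17420 CPM in CD43-ckit- cells, with no marker at 0 in any population. Erythroid markers, of which 9 had a row, summed to 1845 to 2581 CPM in CD43++ckit+ cells, 15540 to 17980 CPM in CD43+ckit- cells and 30690 to 48950 CPM in CD43-ckit- cells. In such bulk libraries, fewer cells of a type and less RNA per cell cannot be told apart.

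Members made up a smaller share of all counts in CD43++ckit+ cells than in the other populations: 0.436%, 0.423% and 0.512% in CD43++ckit+ cells, 0.64%, 0.685% and 0.637% in CD43+ckit- cells, and 0.684%, 0.713% and 0.753% in CD43-ckit- cells. CD43++ckit+ did not overlap the other populations, which overlapped each other. The difference was uneven across members. Ctsb and Ctsd, which encode the cathepsin proteases B and D, together held 22.1%, 21.5% and 23.5% of member counts in CD43++ckit+ cells, 38.7%, 37.6% and 35.6% in CD43+ckit- cells, and 53.4%, 49.0% and 46.9% in CD43-ckit- cells. For each pair of populations the share of these proteases did not overlap, and each exact permutation test gave p = 0.1, the smallest that 3 against 3 libraries allow. Ctsb was among the members with the largest changes in these same data, so the test adds no independent support. Shares of counts within a library do not depend on how libraries are scaled against each other.

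Against CD43+ckit-, CD43++ckit+ cells had less transcript of the cathepsins Ctsb, Ctsd and Ctsf and of the pump subunits Atp6v0a1, Atp6v0b, Atp6v0d1, Atp6v1d and Atp6v1e1, and more of the glycosidases Gaa, Glb1, Hexa, Man2b1 and Manba and of the subunit Atp6v0a2. All but Glb1, Hexa, Man2b1 and Atp6v0a2 among these kept their call under each of 18 other settings of the scaling, filter, tool, block and libraries, as did Idua, Mcoln1, Npc1 and Smpd1, which were lower. Of the 47 tested members, 7 were higher and 17 lower in CD43++ckit+ cells and 23 were not called (edgeR's quasi-likelihood test, Benjamini-Hochberg adjusted p under 0.05 over all tested genes). That is 51.1% of the members, beside 39.8% of all tested genes, of which 19.7% were higher and 20.1% lower. The median log2 fold change was -0.23 over the members and 0.01 over all tested genes. With libraries scaled by their totals, higher calls made up 42.9% of member calls, compared with 29.2% with TMM. The number of higher calls rested on single libraries: it was 2 without library 1 or 2 of CD43++ckit+, 2 without library 1 or 3 of CD43+ckit-, 4 without library 2 of CD43+ckit-, and 12 without library 1 of CD43-ckit-. Each of Glb1, Hexa, Man2b1, Atp6v0a2 and Atp6v1h lost its call without 1 or another of these libraries (adjusted p from 0.0512 to 0.145).

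Between CD43++ckit+ and CD43-ckit- cells, 10 members were higher and 23 lower in CD43++ckit+ cells, and 14 were not called. Ctsb, Ctsd, Ctsf, the lipase gene Lipa, the galactosidase gene Gla and the subunits Atp6v0a1, Atp6v0b, Atp6v0d1 and Atp6v1e1 were lower, and Gaa, Glb1, Manba, Ids, Ctsz, Atp6v0a2, Atp6v1c1 and Atp6v1h were higher, under TMM and each of the 18 other settings. Called members came to 70.2%, near the 67.4% of all tested genes, which divided into 39.7% higher and 27.7% lower. Library scaling set the balance: with library totals 21 members were higher and 9 lower, so that higher calls made up 70% in place of 30.3%, while over all tested genes they made up 82.2% in place of 58.9%. A single member's call given below as made by TMM was lost or turned with library totals. For genes outside the members the words name the fit alone, since single calls there were not followed under library totals. Counts of called members, in all and by role, are by TMM unless another setting is named. Library totals moved the median log2 fold change of all tested genes by 0.91 in this comparison, by 0.27 between CD43++ckit+ and CD43+ckit-, and by 0.65 between CD43+ckit- and CD43-ckit-. The members' median was -0.60 with TMM, beside 0.19 over all tested genes, and 0.31 with library totals, beside 1.105 over all tested genes.

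**Figure D1:**
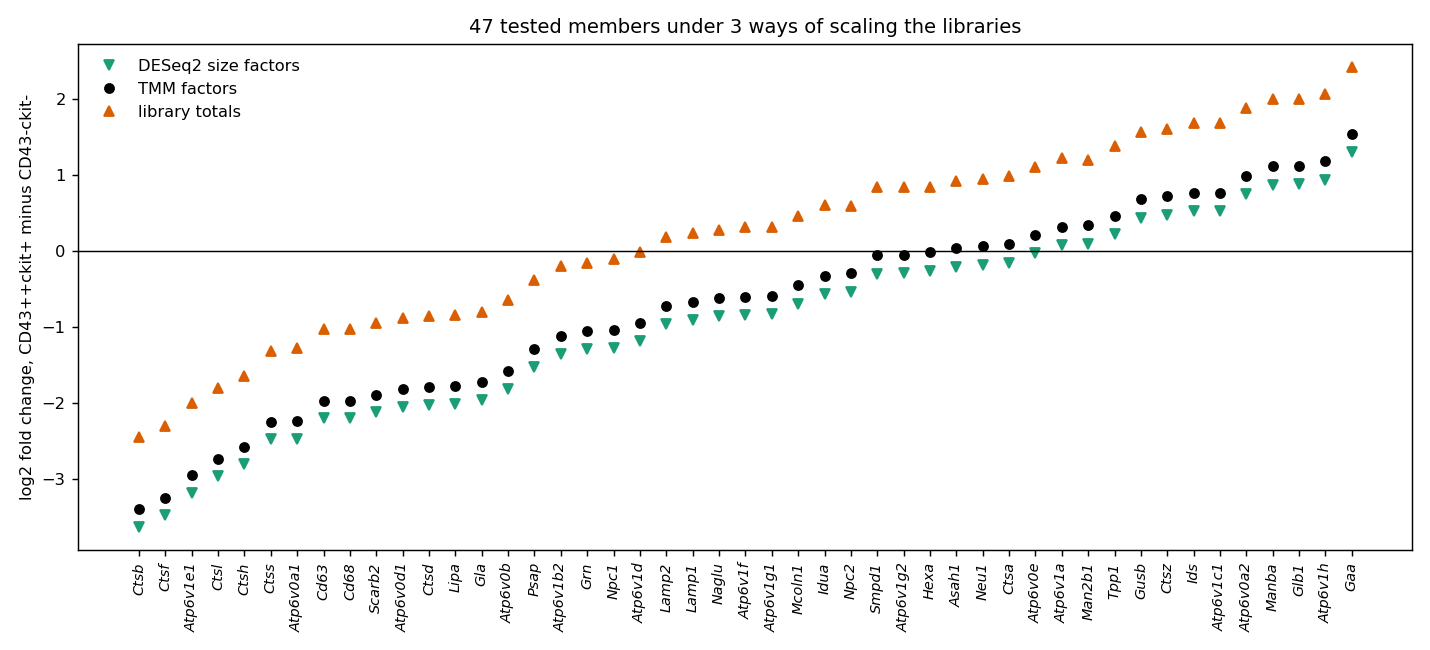
Log2 fold change of each of the 47 tested members (columns, ordered by the TMM value) for CD43++ckit+ minus CD43-ckit-, with libraries scaled by DESeq2 size factors, TMM factors or library totals. The order of the members is nearly the same under the 3 scalings while the whole set moves up with library totals, so Ctsb, Ctsf and Atp6v1e1 stay below 0 and Gaa, Atp6v1h and Glb1 above it.

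Between CD43+ckit- and CD43-ckit- cells, 9 members were higher and 16 lower in CD43+ckit- cells, and 22 were not called. The share called, 53.2%, was near that of all tested genes, 51.9% (31% higher and 20.9% lower). Atp6v1e1, Ctsb, Gla and Lipa were lower in CD43+ckit- cells, and Atp6v0a2, Atp6v1c1, Atp6v1h, Ctsa, Ids, Smpd1 and Tpp1 were higher, under TMM and each of the 18 other settings. With library totals the counts were 20 higher and 4 lower, a share of 83.3% higher in place of 36%, and over all tested genes 85.2% in place of 59.7%. Same-numbered libraries of these populations deviated together, though libraries 2 and 3 did so across numbers as well, and with the replicate number as a block 9 members were higher and 25 lower. The block added calls for Asah1, Atp6v0a1, Cd63, Ctsh, Ctsl, Grn, Man2b1, Psap and Scarb2, lower in CD43+ckit- cells, and Idua, higher there, and removed that of Mcoln1 (adjusted p = 0.0815). The number lower was 10 without library 1 and 9 without library 3 of CD43+ckit-.

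Over both steps by TMM, 7 members were lower in CD43++ckit+ cells than in CD43+ckit- and also lower in CD43+ckit- cells than in CD43-ckit- cells. In both steps 3 were higher, beside 7.44% (lower) and 5.76% (higher) of all tested genes. A peak in CD43+ckit- cells was called for 3 members and a trough for 1, beside 5.25% and 2.72% of all tested genes. Under TMM, DESeq2 size factors and library totals alike, only Atp6v1e1 and Ctsb kept both lower calls. Atp6v0a2 alone kept both higher calls, and Smpd1 alone kept its peak. The trough, that of Hexa, was lost with library totals. Libraries did not overlap between CD43++ckit+ and CD43+ckit- for 12 members with CD43++ckit+ above and 19 with it below, beside 55.5% of all tested genes (27% above and 28.5% below). The counts were 11 above and 24 below for CD43++ckit+ against CD43-ckit- (73.2% of all tested genes, 42.7% and 30.5%) and 10 above and 22 below for CD43+ckit- against CD43-ckit- (64.3%, 36.1% and 28.2%). The member mean was highest in CD43-ckit- cells for 28, in CD43++ckit+ cells for 11 and in CD43+ckit- cells for 8 members (59.6%, 23.4% and 17% of them), beside 37%, 39.4% and 23.6% of all tested genes. These overlaps and means rest on TMM-scaled CPM and were not counted with library totals. Under library totals most member calls against CD43-ckit- were higher, as given above.

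The V-ATPase genes did not move as a block. Of 14 tested subunit genes, 2 were higher and 7 lower in CD43++ckit+ cells than in CD43+ckit- cells, 3 higher and 8 lower than in CD43-ckit- cells, and between CD43+ckit- and CD43-ckit- 3 were higher and 5 lower. Atp6v1e1, which encodes the E subunit of the peripheral stalks that hold V1 to V0, stood at 88.6, 85.5 and 88.9 CPM in CD43++ckit+ cells, 220.7, 221.9 and 194.3 CPM in CD43+ckit- cells, and 844.1, 615.3 and 571.8 CPM in CD43-ckit- cells. These 3 populations did not overlap in either step. Its log2 fold change was -1.28 ± 0.16 (SE) for CD43++ckit+ minus CD43+ckit- (adjusted p = 0.000578), -2.95 ± 0.17 for CD43++ckit+ minus CD43-ckit- (adjusted p = 2.22e-06) and -1.67 ± 0.16 for CD43+ckit- minus CD43-ckit- (adjusted p = 0.000102). As a share of all V-ATPase counts of a library it held 8.31% ± 0.373 in CD43++ckit+ cells, 12.3% ± 0.339 in CD43+ckit- cells and 25.9% ± 1.61 in CD43-ckit- cells (SD, n = 3 each; exact permutation p = 0.1 for each pair, the smallest possible). Atp6v1e1 was picked for its large change in these same data, so the test of its share adds no independent support. The erythroid marker sum given above was likewise lowest in CD43++ckit+ and highest in CD43-ckit- cells, and its part in the levels of Atp6v1e1 was not tested.

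**Figure D2:**
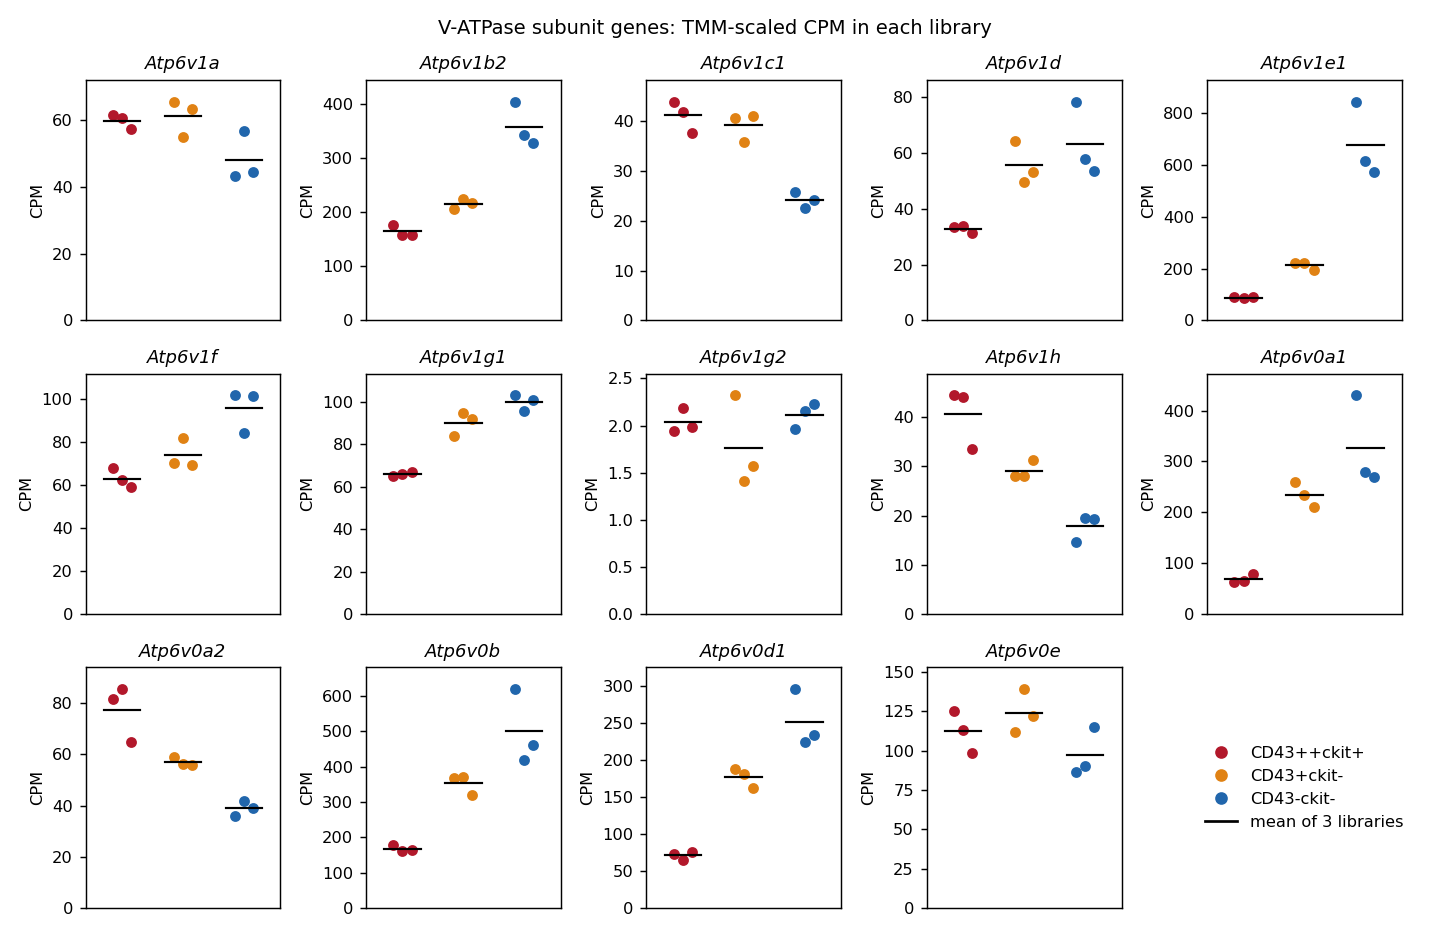
TMM-scaled CPM of the 14 tested V-ATPase subunit genes, with a point for each library and a line at the mean of 3 libraries per population. Atp6v1e1, Atp6v0b, Atp6v0d1 and Atp6v0a1 are lowest in CD43++ckit+ cells, while Atp6v0a2 and Atp6v1h are highest there and Atp6v1c1 is lowest in CD43-ckit- cells.

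Other V1 genes differed in direction. Like Atp6v1e1, Atp6v1d, Atp6v1f and Atp6v1g1 were lower in CD43++ckit+ cells than in CD43-ckit- cells by TMM (-0.946, -0.6 and -0.596). Atp6v1h, whose product is the regulatory H subunit that bridges V1 and V0, stood at 44.4, 44.1 and 33.6 CPM in CD43++ckit+ cells, 28.1, 28.0 and 31.3 CPM in CD43+ckit- cells, and 14.6, 19.6 and 19.4 CPM in CD43-ckit- cells. CD43++ckit+ lay above CD43+ckit- by 0.48 ± 0.16 (adjusted p = 0.0426, and 0.0639 with DESeq2 size factors) and above CD43-ckit- by 1.19 ± 0.17 (adjusted p = 0.000266), without overlap. Atp6v1c1, for the C subunit that joins the stalks when the pump assembles, stood at 43.9, 41.9 and 37.6 CPM in CD43++ckit+ cells, 40.7, 35.7 and 41.0 CPM in CD43+ckit- cells, and 25.8, 22.6 and 24.2 CPM in CD43-ckit- cells. The first pair of populations overlapped, and CD43-ckit- lay below both (0.77 ± 0.12 for CD43++ckit+ and 0.69 ± 0.12 for CD43+ckit-, adjusted p = 0.000532 and 0.00182). Of the catalytic hexamer, Atp6v1b2, for the B subunit, was lower in CD43++ckit+ cells than in CD43-ckit- cells by TMM (-1.12 ± 0.12, adjusted p = 6.84e-05), a value that library totals brought close to 0. Atp6v1a, for the A subunit, had 57.5 to 61.7 CPM in CD43++ckit+ cells, 54.9 to 65.6 CPM in CD43+ckit- cells and 43.2 to 56.7 CPM in CD43-ckit- cells, and no comparison of it was called. Atp6v1g2 stayed at 1.41 to 2.32 CPM in all libraries and was not called either.

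In V0, the a subunit isoforms moved in opposite directions. Atp6v0a1 stood at 62.8, 64.6 and 79.96 CPM in CD43++ckit+ cells, 259.2, 234.7 and 210.4 CPM in CD43+ckit- cells, and 429.7, 280.1 and 270.1 CPM in CD43-ckit- cells. Atp6v0a2 stood at 81.6, 85.4 and 64.8 CPM in CD43++ckit+ cells, 59.0, 56.2 and 55.8 CPM in CD43+ckit- cells, and 36.1, 41.8 and 38.9 CPM in CD43-ckit- cells. Neither gene overlapped between any 2 populations. Atp6v0a1 differed by -1.76 ± 0.20 between CD43++ckit+ and CD43+ckit- (adjusted p = 0.000446) and by -2.24 ± 0.21 between CD43++ckit+ and CD43-ckit- (adjusted p = 2.85e-05). Its difference for CD43+ckit- minus CD43-ckit- was not called (-0.48 ± 0.20, adjusted p = 0.0677) and was called with the replicate number as a block (adjusted p = 0.0136). Over the 18 other settings that difference ran from -0.669 to 0.201, so its sign was not kept throughout. Atp6v0a2 was higher in CD43++ckit+ cells than in CD43+ckit- cells (0.44 ± 0.13, adjusted p = 0.0245) and than in CD43-ckit- cells (0.99 ± 0.13, adjusted p = 0.000198), and higher in CD43+ckit- cells than in CD43-ckit- cells (0.55 ± 0.13, adjusted p = 0.00749).

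The ratio of a1 to a2 counts within a library needs no scaling. It was 0.769, 0.756 and 1.23 in CD43++ckit+ cells, 4.39, 4.18 and 3.77 in CD43+ckit- cells, and 11.9, 6.71 and 6.94 in CD43-ckit- cells, so no populations overlapped. The mean log2 ratio differed by -2.20 between CD43++ckit+ and CD43+ckit-, by -3.20 between CD43++ckit+ and CD43-ckit- and by -1 between CD43+ckit- and CD43-ckit- (exact permutation p = 0.1 for each, the smallest possible). Each gene alone already lacked overlap, in opposite directions. The ratio therefore could not overlap, and its test adds no support. Per kilobase of principal transcript, the a1 level was 17.2 CPM in CD43++ckit+ cells, 58.6 CPM in CD43+ckit- cells and 81.5 CPM in CD43-ckit- cells, and the a2 level was 14.5, 10.7 and 7.28 CPM in the same order of populations. Antisense gene models cover 9.86% of the exon bases of Atp6v0a2 and 11.8% of those of Atp6v0b, and strand handling is not stated.

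**Figure D3:**
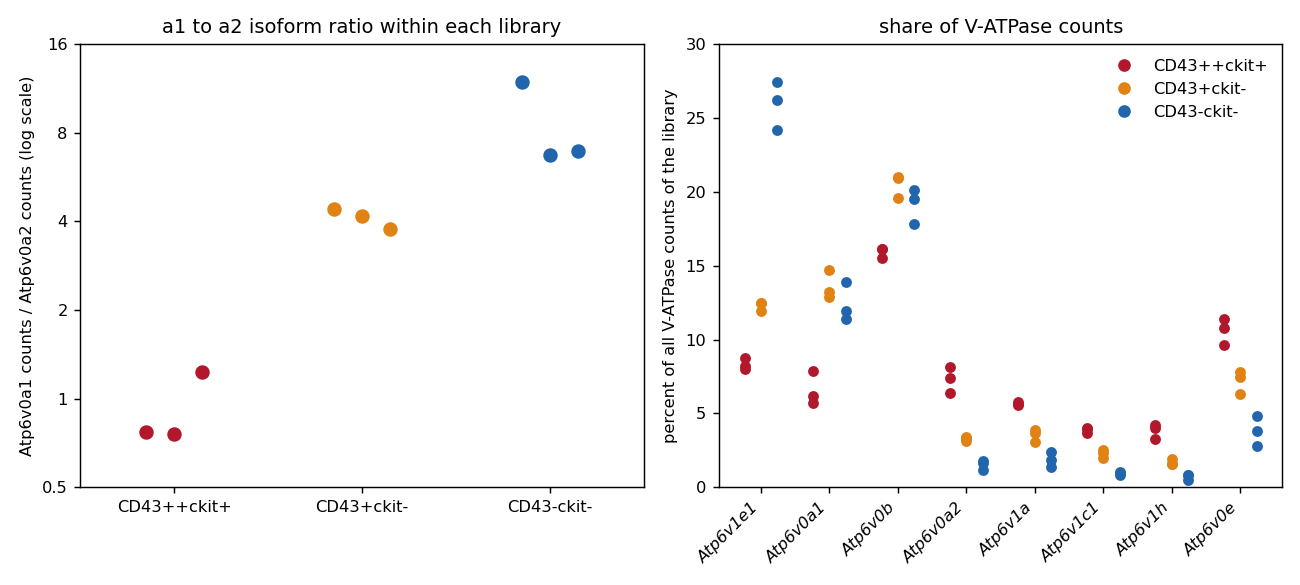
Left, ratio of Atp6v0a1 to Atp6v0a2 counts in each library, on a log scale; right, percent of all V-ATPase counts of a library held by 8 subunit genes, with a point per library. The ratio is at most 1.23 in CD43++ckit+ cells and at least 3.77 elsewhere, and the share of Atp6v1e1 is 24.2% to 27.4% in CD43-ckit- cells beside 8.03% to 8.73% in CD43++ckit+ cells.

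Of the remaining V0 genes, Atp6v0b, for a proteolipid of the rotor ring, stood at 177.4, 161.6 and 164.0 CPM in CD43++ckit+ cells, 369.1, 372.3 and 320 CPM in CD43+ckit- cells, and 619.7, 419.3 and 461.9 CPM in CD43-ckit- cells. Atp6v0d1, for the d subunit that couples the rotor shaft to that ring, stood at 72.8, 64.9 and 75.4 CPM in CD43++ckit+ cells, 187.1, 181.6 and 161.8 CPM in CD43+ckit- cells, and 295.5, 223.8 and 233.5 CPM in CD43-ckit- cells. Both were lowest in CD43++ckit+ cells without overlap, by -1.08 ± 0.16 and -1.32 ± 0.14 against CD43+ckit- (adjusted p = 0.0011 and 0.000393) and by -1.58 ± 0.16 and -1.82 ± 0.14 against CD43-ckit- (adjusted p = 5.3e-05 and 1.12e-05). Their smaller differences for CD43+ckit- minus CD43-ckit- (-0.50 and -0.51) turned positive with library totals (0.17 and 0.16). Atp6v0e, for a small membrane subunit, ranged over 98.3 to 125.4 CPM in CD43++ckit+ cells, 111.6 to 139.0 CPM in CD43+ckit- cells and 86.3 to 114.8 CPM in CD43-ckit- cells, and was not called.

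The 9 untested Atp6v rows held 0 to 17 counts over all libraries together. They include isoforms known mainly from kidney, epididymis, bone or testis, such as Atp6v0a4, Atp6v1b1, Atp6v0d2, Atp6v1c2 and Atp6v1e2. Atp6v0c, which encodes the main proteolipid of the rotor ring, was also listed at 0 counts in every library. Since every cell is known to need it, and the annotation behind the counts is not stated, this 0 is not read as a level or as an upper limit. In the GENCODE M21 transcripts 89.2% of the 50-base words of Atp6v0c occur in no other gene, and the rest are shared with pseudogenes.

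Among the 9 lysosomal proteases, 4 were lower in CD43++ckit+ cells than in CD43+ckit- cells and 0 higher; against CD43-ckit- 5 were lower and 2 higher; between CD43+ckit- and CD43-ckit- 4 were lower and 2 higher. Ctsb, the gene of the cysteine protease cathepsin B, stood at 333.9, 312.2 and 410.4 CPM in CD43++ckit+ cells, 1509, 1443 and 1245 CPM in CD43+ckit- cells, and 4614, 3368 and 3146 CPM in CD43-ckit- cells. CD43++ckit+ lay below CD43+ckit- (-1.99 ± 0.19, adjusted p = 0.000326) and CD43-ckit- (-3.40 ± 0.20, adjusted p = 2.61e-06), and CD43+ckit- below CD43-ckit- (-1.41 ± 0.19, adjusted p = 0.000486), with no overlap. Ctsf, for cathepsin F, another cysteine protease, stood at 29.1, 26.0 and 27.5 CPM in CD43++ckit+ cells, 207.1, 201.2 and 161.4 CPM in CD43+ckit- cells, and 324.8, 218.5 and 242.1 CPM in CD43-ckit- cells. Most of its difference lay between CD43++ckit+ and CD43+ckit- (-2.79 ± 0.18, adjusted p = 0.000292). Its value for CD43+ckit- minus CD43-ckit- was -0.46 ± 0.17 (adjusted p = 0.044) and 0.20 with library totals, and the call was lost without any of 7 single libraries (adjusted p from 0.0517 to 0.165). Ctsd, for the aspartic protease cathepsin D, stood at 430.4, 396.6 and 441.4 CPM in CD43++ckit+ cells, 842.8, 918.7 and 745.4 CPM in CD43+ckit- cells, and 1584, 1387 and 1404 CPM in CD43-ckit- cells. Another gene model on the same strand covers 34.4% of the exon bases of Ctsd, so part of its counts is uncertain. Antisense gene models cover 12.8% of the exon bases of Ctsb, 17.4% of Ctsa, 26.8% of Ctsl and, among the glycosidases, 12.8% of Hexa, so their counts, and the ratios with Ctsb, carry the same doubt. The erythroid marker sum moved in the same direction as these 3 cathepsins, though not all of the 9 markers did, as given above. Most of that sum in CD43-ckit- cells was Slc4a1 and Alas2, and its part in the cathepsins was not tested.

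Of the other 6 proteases, Ctsh, Ctsl and Ctss varied most between libraries and are described further on. Ctsa, for the carboxypeptidase cathepsin A, which also protects lysosomal neuraminidase and galactosidase, stood at 66.3, 72.4 and 80.6 CPM in CD43++ckit+ cells, 123.5, 112.8 and 98.5 CPM in CD43+ckit- cells, and 59.2, 68.2 and 79.2 CPM in CD43-ckit- cells. CD43+ckit- lay above both others without overlap: CD43++ckit+ was lower by TMM (-0.61 ± 0.15, adjusted p = 0.00988; 0.0522 without library 2 of CD43+ckit-), and CD43+ckit- exceeded CD43-ckit- by 0.70 ± 0.15 (adjusted p = 0.00438). Tpp1, for tripeptidyl peptidase 1, stood at 82.3, 90.1 and 74.9 CPM in CD43++ckit+ cells, 123.3, 87.5 and 96.3 CPM in CD43+ckit- cells, and 64.6, 56.2 and 58.2 CPM in CD43-ckit- cells. Only the populations other than CD43-ckit- overlapped, and CD43+ckit- exceeded CD43-ckit- by 0.78 ± 0.15 (adjusted p = 0.00279). Ctsz, for the carboxypeptidase cathepsin Z, was higher in CD43++ckit+ cells than in CD43-ckit- cells (0.72 ± 0.18, adjusted p = 0.00562).

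**Figure D4:**
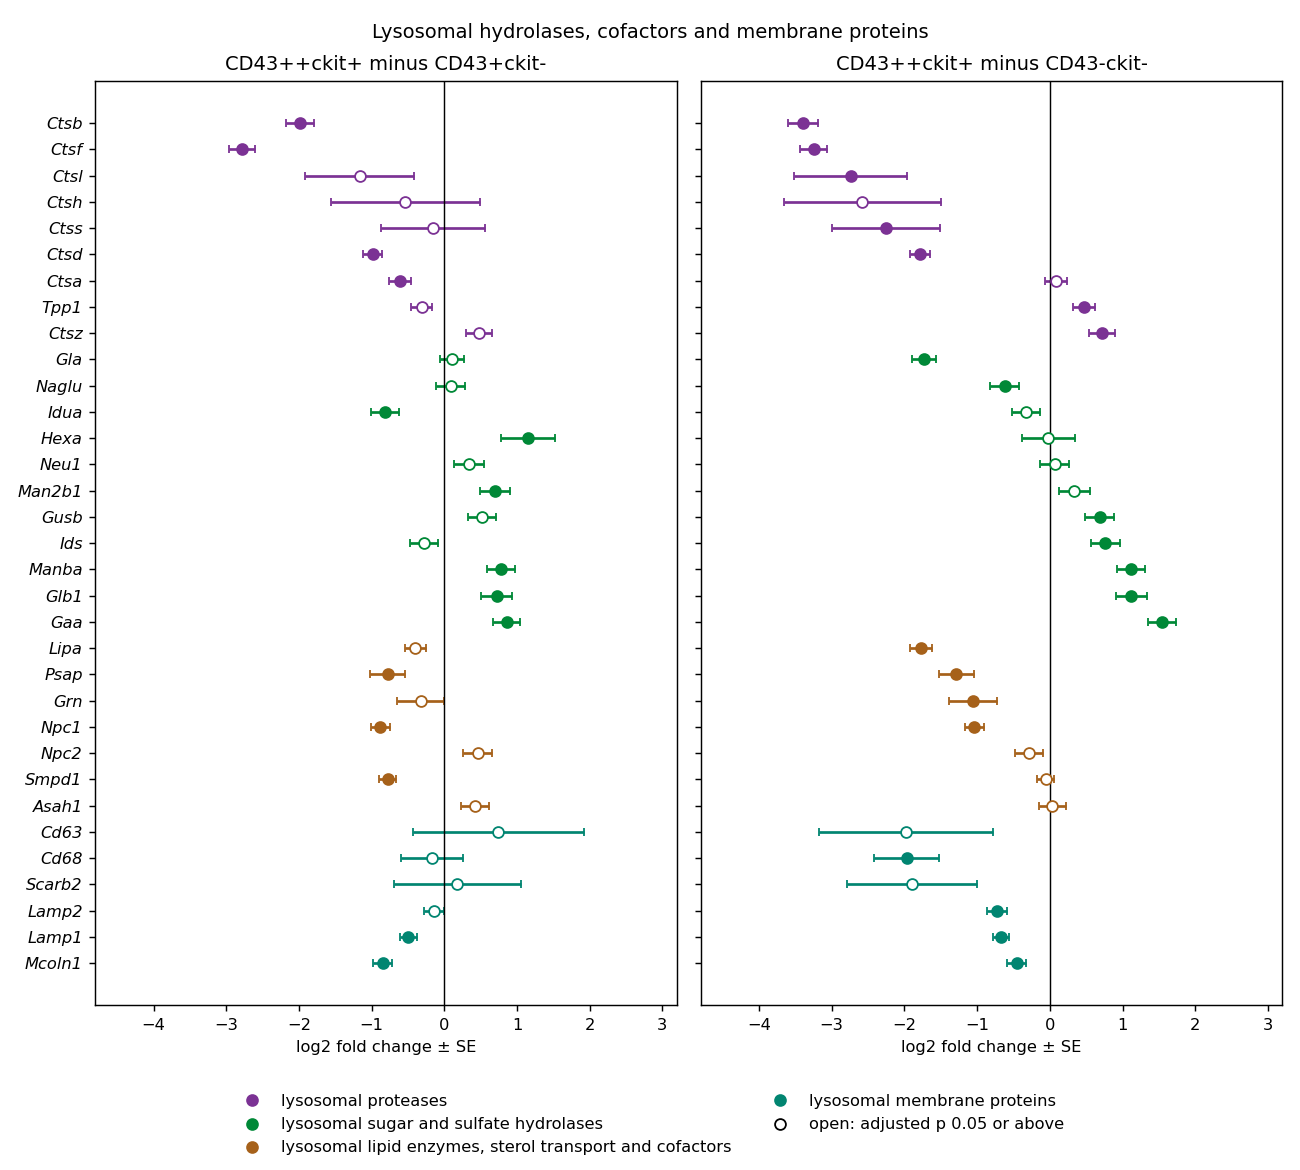
Log2 fold change with its SE for the 33 members other than V-ATPase subunits, for CD43++ckit+ minus CD43+ckit- (left) and CD43++ckit+ minus CD43-ckit- (right), coloured by role; filled points have an adjusted p under 0.05. Cathepsin genes Ctsb and Ctsf lie farthest below 0 in both panels and the glycosidase genes Gaa, Glb1 and Manba above 0 in both; the wide bars belong to Cd63, Ctsh, Scarb2, Ctsl and Ctss.

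Among the 11 sugar and sulfate hydrolases, 5 were higher and 1 lower in CD43++ckit+ cells than in CD43+ckit- cells, 5 higher and 2 lower than in CD43-ckit- cells, and 2 higher and 3 lower between CD43+ckit- and CD43-ckit-. Gaa, the acid alpha-glucosidase that breaks down lysosomal glycogen, stood at 69.3, 77.1 and 70.5 CPM in CD43++ckit+ cells, 37.1, 45.4 and 36.8 CPM in CD43+ckit- cells, and 18.5, 24.6 and 31.2 CPM in CD43-ckit- cells. No 2 populations overlapped, and CD43++ckit+ exceeded CD43+ckit- by 0.86 ± 0.18 (adjusted p = 0.00592) and CD43-ckit- by 1.54 ± 0.19 (adjusted p = 0.000132). The ratio of Ctsb to Gaa counts within a library was 4.82, 4.05 and 5.82 in CD43++ckit+ cells, 40.6, 31.7 and 33.9 in CD43+ckit- cells, and 249, 137 and 101 in CD43-ckit- cells. These proportions did not overlap between populations (exact permutation p = 0.1 for each pair, the smallest possible). Ctsb and Gaa had been picked for large opposite changes in these same data, each without overlap. Their ratio therefore could not overlap, and its test adds no support.

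Glb1, for the beta-galactosidase of gangliosides and keratan sulfate, stood at 29.2, 31.0 and 25.8 CPM in CD43++ckit+ cells, 15.2, 18.7 and 18.4 CPM in CD43+ckit- cells, and 8.80, 15.2 and 15.4 CPM in CD43-ckit- cells. Manba, for the beta-mannosidase of glycoprotein breakdown, stood at 20.6, 20.8 and 19.4 CPM in CD43++ckit+ cells, 9.68, 12.3 and 13.5 CPM in CD43+ckit- cells, and 7.15, 10.5 and 10.4 CPM in CD43-ckit- cells. CD43++ckit+ lay above both other populations for both genes, by 0.72 ± 0.22 and 0.78 ± 0.19 against CD43+ckit- (adjusted p = 0.0262 and 0.0116) and by 1.12 ± 0.22 and 1.12 ± 0.20 against CD43-ckit- (adjusted p = 0.00162 and 0.000924). Man2b1, for the lysosomal alpha-mannosidase, stood at 179.5, 170.3 and 143.8 CPM in CD43++ckit+ cells, 87.9, 114.1 and 102.9 CPM in CD43+ckit- cells, and 89.0, 144.7 and 157.2 CPM in CD43-ckit- cells. CD43++ckit+ exceeded CD43+ckit- without overlap (0.69 ± 0.21, adjusted p = 0.0276), while CD43-ckit- overlapped both others. The sum of 8 mast cell and basophil markers was also highest in CD43++ckit+ cells, at 1076, 929.3 and 560.2 CPM, against 140.2, 211.3 and 194 CPM in CD43+ckit- cells and 139.6, 316.6 and 312.1 CPM in CD43-ckit- cells, with no marker at 0 in all libraries of a population. Nearly all of it in CD43++ckit+ cells was Hdc and Ms4a2, while the mast cell protease genes Cpa3, Cma1 and Tpsb2 had at most 4.349 CPM there. Against CD43-ckit-, 3 of the 8 markers were higher and 1 lower by TMM. Mcpt8 stood at 0.0768, 0.0821 and 3.68 CPM in CD43++ckit+ cells but 2.75, 15.05 and 11.63 CPM in CD43-ckit- cells. Prss34 likewise had 0.768, 0.574 and 13.53 CPM against 10.21, 55.96 and 47.15 CPM. The 5 leukaemia and progenitor markers include Kit and the CD43 gene Spn, on which the cells were sorted. Their sum was 811.3 to 1016 CPM in CD43++ckit+ cells, 204.5 to 324.3 CPM in CD43+ckit- cells and 190.1 to 397.3 CPM in CD43-ckit- cells. Most of it in CD43++ckit+ cells was Spn, Myb and Kit. Relative to CD43-ckit-, 3 of the 5 rose and 2 fell by TMM. Ptprc stood at 3.81, 1.83 and 26.3 CPM in CD43++ckit+ cells but 36.1, 95.4 and 81.4 CPM in CD43-ckit- cells. Cd34 had 0.742, 0.219 and 1.99 CPM against 2.36, 5.96 and 7.75 CPM. The part of either list in the higher levels of Gaa, Glb1, Manba, Man2b1, Atp6v0a2 and Atp6v1h was not tested.

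Hexa, for the alpha chain of beta-hexosaminidase, had a trough in CD43+ckit- cells: 45.1, 40.5 and 49.0 CPM in CD43++ckit+ cells, 12.4, 27.5 and 20.7 CPM in CD43+ckit- cells, and 22.9, 53.4 and 60.1 CPM in CD43-ckit- cells. CD43++ckit+ exceeded CD43+ckit- by 1.15 ± 0.37 (adjusted p = 0.0347), and CD43+ckit- lay below CD43-ckit- by TMM (-1.17 ± 0.37, adjusted p = 0.0268), with overlapping libraries. The second call was lost on leaving out library 1 or 3 of CD43+ckit- or, in CD43-ckit-, library 2 or 3 (adjusted p from 0.0721 to 0.093). Library 1 was the lowest of both c-Kit negative populations, as for the neutrophil marker sum, whose part was not tested. Gla, for the alpha-galactosidase of globotriaosylceramide, stood at 7.88, 6.78 and 6.68 CPM in CD43++ckit+ cells, 7.26, 6.14 and 6.35 CPM in CD43+ckit- cells, and 26.7, 23.3 and 20.7 CPM in CD43-ckit- cells. The first 2 populations overlapped and both lay below CD43-ckit- (-1.73 ± 0.17 for CD43++ckit+ and -1.84 ± 0.17 for CD43+ckit-, adjusted p = 4.01e-05 and 8.5e-05). Ids, for the iduronate sulfatase of glycosaminoglycan breakdown, stood at 28.9, 31.2 and 22.7 CPM in CD43++ckit+ cells, 39.4, 27.3 and 33.6 CPM in CD43+ckit- cells, and 19.6, 14.6 and 14.6 CPM in CD43-ckit- cells. It was lowest in CD43-ckit- cells, which lay below CD43++ckit+ (0.76 ± 0.20, adjusted p = 0.00752) and CD43+ckit- (1.04 ± 0.20, adjusted p = 0.00265). Idua, for the iduronidase of the same breakdown route, was lower in CD43++ckit+ cells than in CD43+ckit- cells (-0.82 ± 0.19, adjusted p = 0.00856). Neu1, for the lysosomal neuraminidase, ranged over 30.8 to 35.6 CPM in CD43++ckit+ cells, 24.5 to 28.8 CPM in CD43+ckit- cells and 21.6 to 38.3 CPM in CD43-ckit- cells and was not called in any comparison.

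Of 7 genes for lipid enzymes, sterol transport and cofactors, 3 were lower and 0 higher in CD43++ckit+ cells than in CD43+ckit- cells, 4 lower and 0 higher than in CD43-ckit- cells, and 2 lower and 1 higher between CD43+ckit- and CD43-ckit-. Psap, the precursor of the saposins that present sphingolipids to their hydrolases, stood at 221.5, 191.8 and 338.3 CPM in CD43++ckit+ cells, 382.3, 490.2 and 417.9 CPM in CD43+ckit- cells, and 474.7, 634.5 and 722.7 CPM in CD43-ckit- cells. CD43++ckit+ lay below CD43+ckit- by TMM (-0.78 ± 0.24, adjusted p = 0.0275) and below CD43-ckit- by TMM (-1.28 ± 0.24, adjusted p = 0.00125), and the c-Kit negative populations overlapped. Its first call was lost on leaving out library 1 or 2 of CD43++ckit+ or, in CD43+ckit-, library 2 or 3 (adjusted p from 0.061 to 0.132). Lipa, for the acid lipase of cholesteryl esters, stood at 40.5, 46.8 and 46.4 CPM in CD43++ckit+ cells, 53.4, 60.6 and 62.4 CPM in CD43+ckit- cells, and 181.1, 145.7 and 130.8 CPM in CD43-ckit- cells. It lay below CD43-ckit- in CD43++ckit+ cells (-1.77 ± 0.15, adjusted p = 1.62e-05) and in CD43+ckit- cells (-1.38 ± 0.15, adjusted p = 0.000165). Smpd1, the acid sphingomyelinase gene, peaked in CD43+ckit- cells, with 29.3, 30.5 and 29.9 CPM in CD43++ckit+ cells, 48.1, 55.9 and 50 CPM in CD43+ckit- cells, and 28.4, 33.3 and 31.5 CPM in CD43-ckit- cells. CD43++ckit+ lay below CD43+ckit- (-0.78 ± 0.12, adjusted p = 0.00111) and CD43+ckit- above CD43-ckit- (0.72 ± 0.12, adjusted p = 0.00119), while CD43++ckit+ and CD43-ckit- overlapped. Npc1 and Npc2, which pass cholesterol out of the lysosome, differed: Npc1 was lower in CD43++ckit+ cells than in CD43+ckit- cells (-0.88 ± 0.13, adjusted p = 0.00108), whereas the difference of Npc2 was 0.46 ± 0.19 (adjusted p = 0.0913).

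By TMM, of 6 lysosomal membrane protein genes, 2 were lower in CD43++ckit+ cells than in CD43+ckit- cells, and 4 than in CD43-ckit- cells. In either comparison 0 were higher. Between CD43+ckit- and CD43-ckit-, 2 were lower and 1 higher. With library totals none of the 4 lower calls of CD43++ckit+ against CD43-ckit- was kept. Lamp1, Lamp2 and Mcoln1 turned positive, and Cd68 was not called (adjusted p = 0.0866). Lamp1, for an abundant glycoprotein of the lysosomal membrane, stood at 211.5, 186.2 and 176.3 CPM in CD43++ckit+ cells, 267.6, 271.2 and 269.5 CPM in CD43+ckit- cells, and 323.5, 290.8 and 301.7 CPM in CD43-ckit- cells. By TMM it was lower in CD43++ckit+ cells than in CD43+ckit- cells (-0.49 ± 0.11, adjusted p = 0.00744) and than in CD43-ckit- cells (-0.67 ± 0.11, adjusted p = 0.000662), the second of which became 0.24 with library totals. Mcoln1, for the calcium-releasing channel TRPML1, had its highest level in the middle population, at 23.4 to 25.0 CPM in CD43++ckit+ cells, 37.7 to 50.1 CPM in CD43+ckit- cells and 31.3 to 34.6 CPM in CD43-ckit- cells. It was lower in CD43++ckit+ cells than in CD43+ckit- cells (-0.85 ± 0.13, adjusted p = 0.0014).

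Within CD43++ckit+, 7 members were at least 2 times as high in library 3 as in either other library: Cd63, Ctsh, Ctsl, Scarb2, Ctss, Cd68 and Grn. Their excess was 2.01-fold to 16.5-fold, and all 7 were also lower in library 1 than in both other libraries of CD43+ckit- and of CD43-ckit-. The other 40 tested members had a median coefficient of variation of 7.33% in CD43++ckit+ cells, with a highest value of 30.9%. The neutrophil marker sum was highest in library 3 of CD43++ckit+ and lowest in library 1 of both other populations, and its part in these 7 genes was not tested. Macrophage markers, 13 in the list, summed to 25.3, 16.7 and 107.7 CPM in CD43++ckit+ cells, 12.8, 35.1 and 26.5 CPM in CD43+ckit- cells, and 194.5, 125.7 and 138.4 CPM in CD43-ckit- cells, with Vsig4 at 0 in CD43+ckit- cells. B lineage markers (8 genes) summed to 3.775 to 26.12 CPM in CD43++ckit+ cells, 15.94 to 47.25 CPM in CD43+ckit- cells and 89.8 to 219.8 CPM in CD43-ckit- cells. T and NK cell markers (7 genes) summed to 2.53, 1.04 and 18.15 CPM in CD43++ckit+ cells, 3.43, 6.439 and 5.48 CPM in CD43+ckit- cells, and 17.99, 34.36 and 31.87 CPM in CD43-ckit- cells. Like the neutrophil sum, that sum was highest in library 3 of CD43++ckit+ and lowest in library 1 of both other populations. Its part in the 7 genes was not tested either. Dendritic cell markers (6 genes) reached at most 29.67, 21.6 and 97.18 CPM in the same order of populations.

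Ctss, for cathepsin S, a protease of antigen processing in myeloid cells, stood at 4.12, 1.48 and 13.2 CPM in CD43++ckit+ cells, 2.89, 9.39 and 8.62 CPM in CD43+ckit- cells, and 21.1, 33.6 and 34.7 CPM in CD43-ckit- cells. Cd68, for a macrosialin of phagocyte lysosomes, stood at 2.89, 3.06 and 8.91 CPM in CD43++ckit+ cells, 3.73, 6.88 and 6.12 CPM in CD43+ckit- cells, and 17.4, 20.4 and 20.7 CPM in CD43-ckit- cells. For both genes CD43-ckit- lay above the other populations, which overlapped. By TMM, Ctss differed from CD43-ckit- by -2.25 ± 0.74 in CD43++ckit+ cells (adjusted p = 0.0251) and by -2.10 ± 0.74 in CD43+ckit- cells (adjusted p = 0.0422), and Cd68 by -1.97 ± 0.44 and -1.80 ± 0.44 (adjusted p = 0.00351 and 0.00858). The call of Ctss for CD43+ckit- was lost without any 1 library of either population and without library 1 of CD43++ckit+, and that for CD43++ckit+ without library 1 of CD43++ckit+ or, in CD43-ckit-, library 2 or 3 (adjusted p from 0.0533 to 0.129). Cd63, for a tetraspanin of late endosomes and granules, stood at 2.82, 1.12 and 46.6 CPM in CD43++ckit+ cells, 4, 14.8 and 11.4 CPM in CD43+ckit- cells, and 38.3, 78.5 and 82.9 CPM in CD43-ckit- cells. No comparison of Cd63 was called, and its difference between CD43++ckit+ and CD43+ckit- of 0.74 ± 1.17 became -2.35 without library 3 of CD43++ckit+ (adjusted p = 0.0147).

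**Figure D5:**
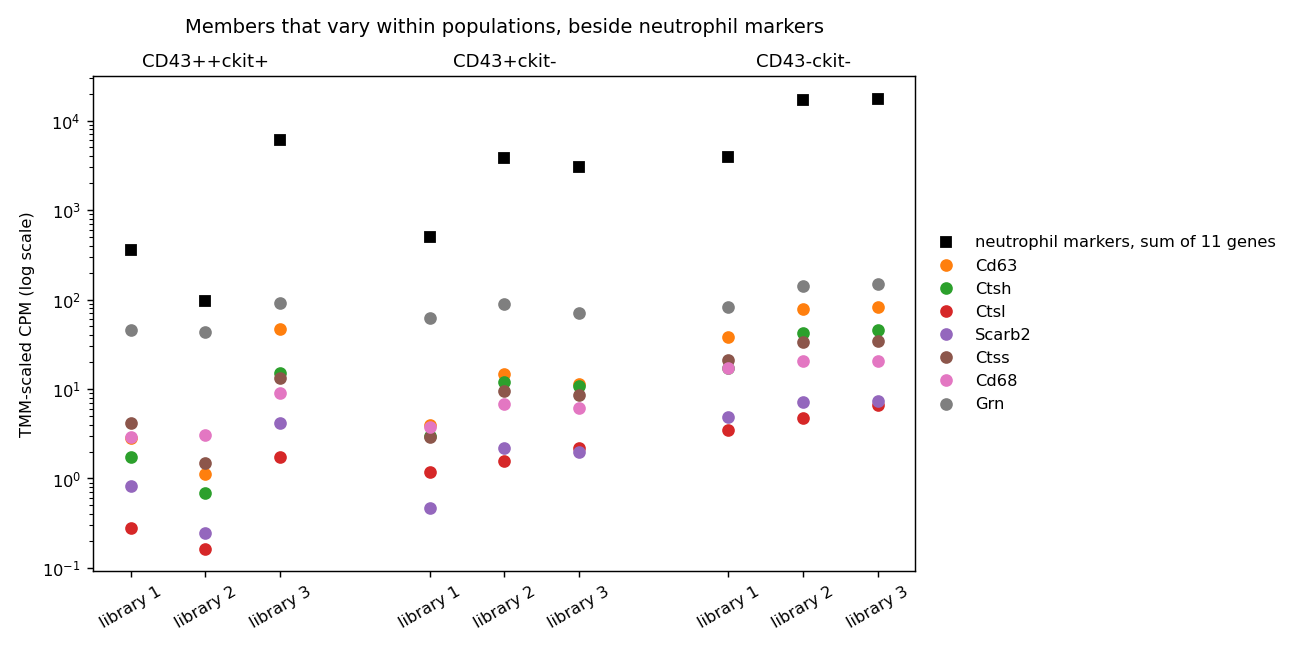
TMM-scaled CPM, on a log scale, of the 7 members that differ most within CD43++ckit+ and the sum of 11 neutrophil markers (squares), for each library. All 8 values are highest in library 3 within CD43++ckit+ and lowest in library 1 within both other populations.

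Among lysosomal genes outside the members, directions by TMM were mixed as well. Between CD43++ckit+ and CD43-ckit- cells the share called was 58.3% to 66.7% in the lists below. Of all tested genes 67.4% were called (39.7% higher and 27.7% lower), so the share called sets none of these lists apart. Of 12 genes for V-ATPase accessory proteins, assembly factors and the a3 subunit, 3 were higher and 4 lower in CD43++ckit+ cells than in CD43-ckit- cells. Atp6ap1, an accessory subunit of V0, averaged 84.4 ± 4.17 CPM in CD43++ckit+ cells, 169.4 ± 22.6 CPM in CD43+ckit- cells and 183.2 ± 15.1 CPM in CD43-ckit- cells. The V0 assembly factor Vma21 ran the other way, at 27.1 ± 5.99, 16.04 ± 3.53 and 8.62 ± 0.578 CPM in the same order (SD, n = 3 each), and Tmem199, another assembly factor, was higher in CD43++ckit+ cells than in CD43-ckit- cells (1.38, adjusted p = 0.000523). Of 31 other hydrolases and cofactors 10 were higher and 9 lower in that comparison, with the acid nuclease gene Dnase2a at -3.03 (adjusted p = 5.68e-06). Of 16 other membrane proteins 5 were higher and 5 lower, among them the endolysosomal cation channel gene Tpcn1 at -2.59 (adjusted p = 9.72e-06), the transmembrane protein gene Laptm4a at -1.88 and the amino acid transporter gene Slc36a1 at -2.02. Of 9 genes of mannose 6-phosphate and sortilin delivery 5 were higher and 1 lower. Gnptab, which encodes the phosphotransferase that starts the mannose 6-phosphate tag, was higher in CD43++ckit+ cells than in CD43-ckit- cells (1.245, adjusted p = 0.000619), as was Gga3, an adaptor of receptor sorting (0.51, adjusted p = 0.00255). Gnptg, the accessory subunit of the phosphotransferase, averaged 22.7 ± 1.61 CPM in CD43++ckit+ cells, 23.9 ± 1.13 CPM in CD43+ckit- cells and 36.5 ± 2.68 CPM in CD43-ckit- cells. In the list of the TFEB family and lysosomal mTORC1 control, 21 genes were tested and 4 were higher and 9 lower, including Tfe3, a TFEB relative, at -2.15 (adjusted p = 1.01e-05) and Flcn, which restrains TFE3, at -2.15 (adjusted p = 3.88e-06), with its partner Fnip2 at -1.53 (adjusted p = 0.000474).

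Promoters were searched for the palindrome TCACGTGA, the core of the element bound by TFEB and its relatives, which reads the same on both strands. RefSeq promoter windows, 250 bases before to 50 after a gene start on build GRCm38.p6, were at hand for 45 of 56 members in 50 windows. The palindrome was in 7 member windows (14%), beside 0.974% of 32851 windows of all genes. It was in 17.1% of the windows of tested members, beside 1.82% of those of tested genes. The shorter CACGTG, which lies within it, was in 28% of member windows and 7.15% of all windows. For tested members and tested genes these shares were 34.1% and 9.86%. The 7 genes were Atp6v0d1, Atp6v0e, Atp6v1a, Ctsa, Ctsd, Gla and Mcoln1, and they did not share a pattern: 4 were lower and 3 not called in CD43++ckit+ cells against CD43+ckit-, and likewise 4 and 3 against CD43-ckit-, but not the same 4 (Ctsa in the first, Gla in the second). Between CD43+ckit- and CD43-ckit- 2 were higher (Ctsa and Mcoln1), 3 lower and 2 not called. A match is a description and not a bound site. The windows of Atp6v0d1, Ctsa and Gla are shown since their levels described above follow 3 different courses over the populations, with matches in capitals, read 5′ to 3′ on the strand of the gene (Atp6v0d1 chr8:105566015-105566314, minus strand; Ctsa chr2:164833523-164833822, plus strand; Gla chrX:134600956-134601255, minus strand).
Atp6v0d1: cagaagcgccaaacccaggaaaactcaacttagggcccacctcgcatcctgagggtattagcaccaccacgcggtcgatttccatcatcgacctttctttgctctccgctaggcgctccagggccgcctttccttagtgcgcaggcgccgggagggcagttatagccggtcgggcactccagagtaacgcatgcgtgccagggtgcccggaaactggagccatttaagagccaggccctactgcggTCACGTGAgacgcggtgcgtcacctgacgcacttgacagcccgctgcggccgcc
Ctsa: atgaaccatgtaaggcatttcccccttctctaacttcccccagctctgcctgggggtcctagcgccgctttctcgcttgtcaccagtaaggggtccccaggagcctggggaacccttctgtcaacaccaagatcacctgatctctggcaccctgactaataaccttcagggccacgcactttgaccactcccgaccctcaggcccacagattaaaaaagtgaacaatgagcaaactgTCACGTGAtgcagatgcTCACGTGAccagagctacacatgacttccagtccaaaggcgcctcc
Gla: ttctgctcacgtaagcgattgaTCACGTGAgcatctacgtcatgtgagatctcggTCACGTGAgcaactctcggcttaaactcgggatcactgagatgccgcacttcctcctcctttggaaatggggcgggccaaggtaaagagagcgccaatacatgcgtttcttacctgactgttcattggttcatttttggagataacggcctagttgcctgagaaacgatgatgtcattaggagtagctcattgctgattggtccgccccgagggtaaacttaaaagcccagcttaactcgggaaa
In Atp6v0d1 the match begins at position -4 from the gene start, in Ctsa the first of 2 at -13, and in Gla the first of 2 at -228.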

How the data were processed

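Gene counts for 9 libraries, 3 per sorted population, were deposited as whole-number read counts per gene symbol. Per the submitters' processing notes, HTSeq, RSEM, TopHat2 2.0.4, CASAVA 1.8 and edgeR were involved, in roles that are not stated, and the design text of the series names BWA, TopHat and Cufflinks. Those notes give a human build although the rows carry mouse symbols, so for the counts the build, annotation and strand setting remain unstated here. Overlapping genes and near-identical copies are therefore uncertain.

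Tests used edgeR 4.0.16 under R 4.3.3 on all genes that passed filterByExpr (minimum count 10, minimum total count 15): TMM factors, 3 group means over 9 libraries, estimateDisp, robust glmQLFit and glmQLFTest, with Benjamini-Hochberg adjustment within each comparison. The SE of a log2 fold change was taken as |log2 fold change| over the square root of F. Fold changes are the first-named population minus the second. Scripts were tested on simulated counts. Alternatives were library totals, DESeq2 1.42.0 size factors and its Wald test, no filter, a stricter filter (1 CPM in 6 libraries), fits of 2 populations, replicate blocks, and libraries left out. No libraries were merged: replicates were farther apart than sampling noise, with chi-square of 15.2 to 117 per degree of freedom.

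The labels give the populations the same replicate numbers. For CD43+ckit- and CD43-ckit-, deviations of same-numbered libraries from their population means had correlations of 0.525, 0.366 and 0.303, each above 0.1. The main fit took no pairing all the same, and the replicate number entered only as a block in alternative fits. Libraries 2 and 3 correlated as much across numbers (0.343 and 0.349), so the numbers set apart library 1 rather than 3 separate pairs.

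Members and gene lists were chosen with earlier results of these data known. Values per library are given for up to 6 called members per direction and comparison with the largest log2 fold change, no overlap of libraries and a mean log2 CPM of 3 or more, for the member with the highest mean CPM of each role, and for subunit isoforms whose changes differed by at least 1. Outside the members, up to 3 genes per list with the smallest adjusted p are named, apart from some that are not reported here. Lengths, overlaps and shared words came from GENCODE M21 and promoters from RefSeq (GRCm38.p6). Mast cell, B lineage, T and NK cell, dendritic cell and progenitor marker lists were summed as well.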

Additional observations from a re-analysis of the deposited data

How the results depend on the processing

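Depth limits the Atp6v rows with few counts, Ctsl and Scarb2. Of called members, 14 of 24 (CD43++ckit+ versus CD43+ckit-), 17 of 33 (CD43++ckit+ versus CD43-ckit-) and 11 of 25 (CD43+ckit- versus CD43-ckit-) kept their call and direction under all 18 other settings. For CD43++ckit+ versus CD43+ckit- the 7 higher calls became 11 when only these populations were fitted and 11 with the least correlated library left out of each. The leave-one-out ranges were 2 to 12 higher and 14 to 21 lower for this comparison, 9 to 10 and 19 to 26 for CD43++ckit+ versus CD43-ckit-, and 7 to 10 and 9 to 21 for CD43+ckit- versus CD43-ckit-. With library totals CD43++ckit+ versus CD43-ckit- had 21 higher and 9 lower, and CD43+ckit- versus CD43-ckit- 20 higher and 4 lower. In that last comparison the 16 lower calls became 27 by DESeq2's Wald test, 10 without a low-count filter (9 of the 16 and Atp6v0d2, a row with 17 counts in all), 25 with the replicate block and only these populations fitted, and 26 without the least correlated libraries; the cause was not tested. With the replicate block in a fit of the populations compared, the other counts were 7 higher and 15 lower (CD43++ckit+ versus CD43+ckit-) and 9 higher and 24 lower (CD43++ckit+ versus CD43-ckit-). Same-numbered libraries correlated at 0.447, -0.617 and 0.382 in the first of these and at 0.262, -0.318 and 0.252 in the second. These correlations differ in sign and do not settle whether equal numbers mark the same mouse.

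Library totals, which raise all log2 fold changes by construction, turned these log2 fold changes positive for CD43++ckit+ minus CD43-ckit-: Atp6v1f 0.31, Atp6v1g1 0.32, Atp6v1g2 0.85, Idua 0.61, Lamp1 0.24, Lamp2 0.19, Mcoln1 0.46, Naglu 0.27 and Smpd1 0.85. For CD43+ckit- minus CD43-ckit- they turned Atp6v0b 0.17, Atp6v0d1 0.16, Atp6v1d 0.48, Atp6v1f 0.28, Atp6v1g1 0.50, Ctsf 0.20, Lamp1 0.47, Lamp2 0.061 and Npc1 0.50. For CD43++ckit+ minus CD43+ckit-, Cd63 became -2.72 without the least correlated libraries and, leaving out single libraries, ranged from -2.35 (without library 3 of CD43++ckit+) to 1.296 (without library 2), and Scarb2 became -1.93 without the least correlated libraries.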

Other observations

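Some values outside the report's comparisons were looked up after other values had been seen. Tcirg1, which encodes the a3 isoform of the V0 a subunit known from osteoclasts and immune cells, averaged 40.8 ± 10.8 CPM in CD43++ckit+ cells, 40.4 ± 4.90 CPM in CD43+ckit- cells and 57.2 ± 14.96 CPM in CD43-ckit- cells (SD, n = 3 each), and none of its comparisons was called (adjusted p = 0.968, 0.095 and 0.102 by edgeR's quasi-likelihood test). Among TFEB relatives, Mitf, a regulator of mast cell and melanocyte genes, stood at 8.04, 6.37 and 2.90 CPM in CD43++ckit+ cells, 1.345, 0.838 and 1.67 CPM in CD43+ckit- cells, and 1.18, 1.31 and 1.36 CPM in CD43-ckit- cells. CD43++ckit+ exceeded CD43+ckit- by 2.16 ± 0.42 (SE, adjusted p = 0.00365) and CD43-ckit- by 2.16 ± 0.43 (adjusted p = 0.00179). The mast cell and basophil marker sum was also highest in CD43++ckit+ cells, where nearly all of it was Hdc and Ms4a2. Its part in the level of Mitf was not tested. Tfeb itself stood at 3.38, 1.59 and 10.2 CPM in CD43++ckit+ cells, 4.64, 8.28 and 6.38 CPM in CD43+ckit- cells, and 16.2, 18.6 and 21.0 CPM in CD43-ckit- cells, where it was higher than in the other populations by TMM (adjusted p = 0.0171 and 0.0483), with library 3 the highest of CD43++ckit+.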
